A study of Bos taurus with 24 samples.

Results

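The sterol sensing machinery described here is the set of 7 genes that hold, carry and cut the sterol regulatory element binding proteins: INSIG1, INSIG2, SCAP, SREBF1, SREBF2, MBTPS1 and MBTPS2. Each gene was taken by its brightest transcript cluster (a probe set for 1 gene or predicted gene) that carried a single gene symbol. Of the 7 genes, 6 had such a cluster, 1 each, among the 24997 clusters tested, and INSIG2 was not analysed here. Subcutaneous fat lying between the hooks and the pins was biopsied in 12 mature, non-pregnant crossbred beef cows at both diets, and each of the 24 RNA samples was measured on its own Bovine 1.1ST array. The 4 groups of 6 arrays were high gain cows at ad libitum feeding, the same high gain cows at feed restriction, low gain cows at ad libitum feeding, and the same low gain cows at feed restriction. Cows had been chosen from a larger herd as those that gained the most and the least weight during ad libitum feeding, and they are named H1 to H6 (high gain) and L1 to L6 (low gain). The restriction biopsy came from the left side on day 105 and the ad libitum biopsy from the right side on day 49 of the period that followed. The paper also reports a lower average RNA integrity number for the restriction samples. Diet, side, period and RNA quality thus cannot be told apart. High gain cows also ate more during ad libitum feeding, so that gain and intake cannot be told apart at that diet.

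SREBP-1 and SREBP-2, the products of SREBF1 and SREBF2, are made as inactive proteins in the membrane of the endoplasmic reticulum, bound to the escort protein SCAP. While sterols are plentiful, SCAP is held there by the INSIG proteins. When sterols are scarce, SCAP carries the SREBP to the Golgi, where the site-1 protease (MBTPS1) and then the site-2 protease (MBTPS2) cut it, and the freed fragment enters the nucleus and switches on genes of cholesterol and fatty acid synthesis. INSIG1 is itself a target of this fragment in cultured mammalian cells, and in cattle adipose tissue is a main site of fatty acid synthesis. The arrays measured RNA, and neither cleavage nor protein was measured.

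Values are deposited log2 signals, on which a difference of 1 is a doubling of signal. Levels of different genes are not compared, because the arrays do not give them per length. The array medians were 7.83 to 7.94 at ad libitum feeding and 8.26 to 8.34 at restriction, and over all clusters the change with ad libitum feeding had a median of -0.42 in high gain and -0.43 in low gain cows. The members and the counts of each gene list are therefore given on the deposited scale and also with every array centred on its own median. The 12 adipocyte markers, which check the labelled tissue, had a mean signal of 15.8 to 16.5 in high gain cows at ad libitum feeding and 15.6 to 16.2 at restriction. In bulk tissue, fewer cells of a type and less RNA per cell cannot be told apart.

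With ad libitum feeding INSIG1 rose in both gain groups, by 4.14 on the log2 scale in high gain cows and 4.32 in low gain cows, and on the deposited scale no other member changed by as much as 1. There 1 of the 6 measured members rose and 2 fell in high gain cows, where 7.36% of all clusters were called higher and 53.1% lower. In low gain cows 3 members rose and 0 fell, against 6.28% of all clusters higher and 54.3% lower. After centring, 3 of 6 rose and 0 fell in high gain cows (18.8% of all clusters higher, 16.5% lower), and 5 of 6 rose and 0 fell in low gain cows (18.6% higher, 13.1% lower). The median change of the 6 members was 0.073 and 0.34 on the deposited scale and 0.49 and 0.79 after centring, in high and low gain cows in that order.

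**Figure D1:**
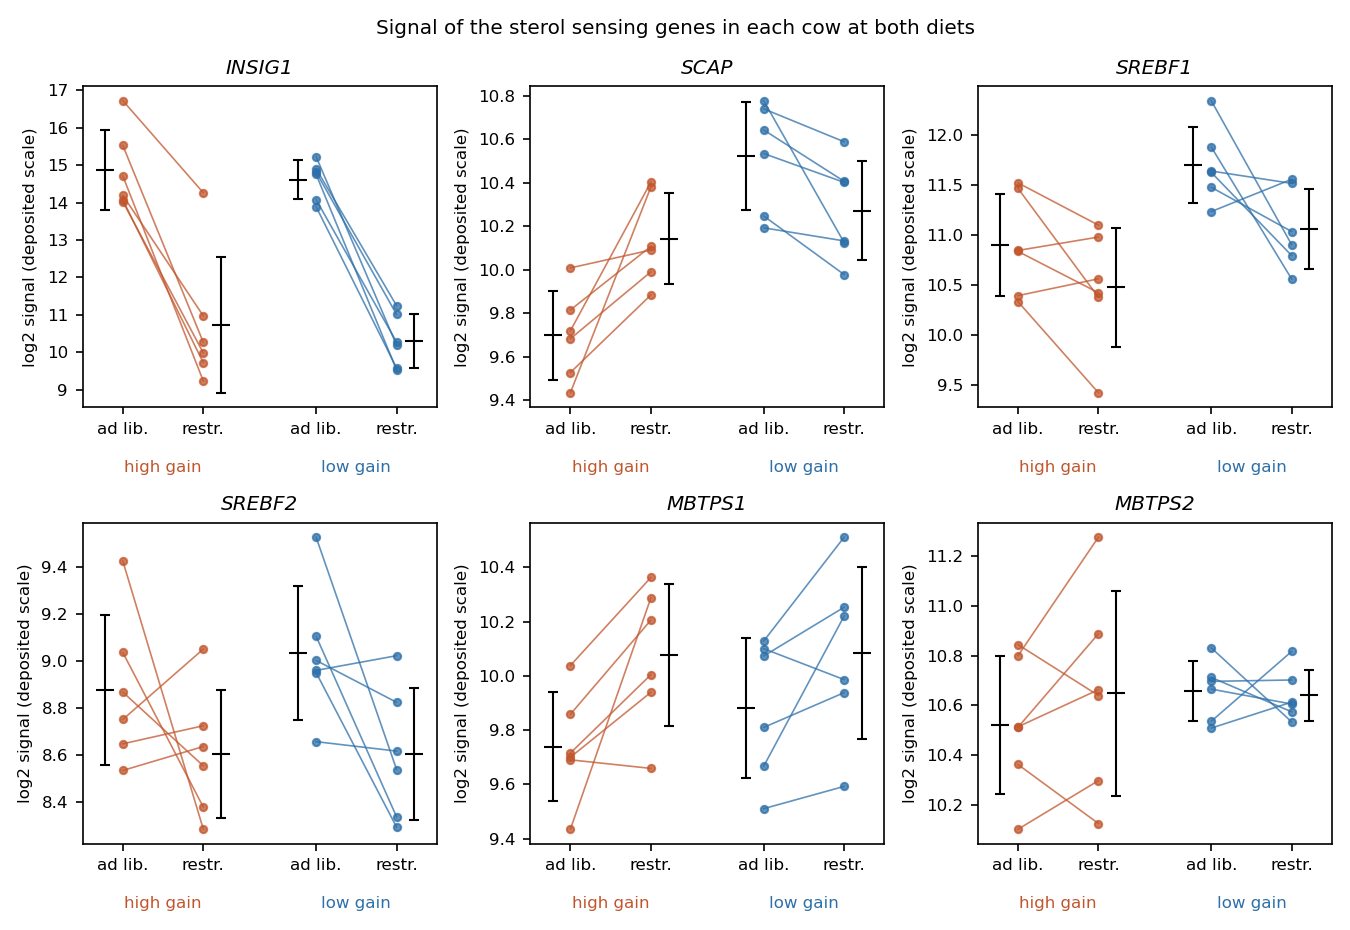
Deposited log2 signal (y axis, a separate range for each gene) of the 6 measured members in each cow, with ad libitum feeding left of restriction and high gain left of low gain cows; lines join the arrays of 1 cow, and black bars show the mean ± SD of 6 cows. INSIG1 was higher at ad libitum feeding in 12 of 12 cows, and SCAP was lower in 6 of 6 high gain and higher in 6 of 6 low gain cows.

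INSIG1 encodes the membrane protein that keeps SCAP and its SREBP in the endoplasmic reticulum. In high gain cows its lowest, median and highest log2 signals were 14.03, 14.45 and 16.73 at ad libitum feeding and 9.23, 10.12 and 14.26 at restriction. Low gain cows had 13.89, 14.79 and 15.23 at ad libitum feeding and 9.52, 10.23 and 11.24 at restriction. The low gain groups did not overlap, which held for 1.99% of all clusters in the direction of a higher signal at ad libitum feeding, and the high gain groups overlapped through a single array, that of cow H2 at restriction.

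The signal of INSIG1 was 17.7-fold higher at ad libitum feeding in high gain cows (log2 change 4.14, SE 0.37, 95% interval 3.29 to 5.0, limma adjusted p = 0.000143). It was 19.9-fold higher in low gain cows (4.32, SE 0.23, 95% interval 3.81 to 4.82, limma adjusted p = 0.000115). Among all 24997 clusters this was the 16th highest rise in high gain and the 3rd highest in low gain cows. The changes of single cows lay between 2.47 (H2) and 5.49 (H5) in the high gain group and between 3.67 (L4) and 5.24 (L2) in the low gain group. Centring the arrays raised the mean change to 4.56 and 4.77. INSIG1 passed the threshold in both gain groups under every one of the 17 alternatives run for each, with changes of 3.87 to 4.56 in high gain and 4.13 to 4.77 in low gain cows.

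Cow H2 had the highest INSIG1 signal of the high gain cows at each diet, 16.73 at ad libitum feeding and 14.26 at restriction, where the next highest cow (H6) had 10.97. The mean signal of the 17 measured SREBP-2 targets of cholesterol synthesis in H2 at restriction, 9.75, lay within the 9.06 to 9.85 of the other 5 high gain cows. For the 17 measured SREBP-1 targets of fatty acid synthesis H2 was the highest at restriction, with 13.33 against 12.55 to 13.26. At ad libitum feeding H2 was the highest high gain cow for both lists, with 11.60 (cholesterol synthesis) and 16.32 (fatty acid synthesis). Its SCAP and SREBF1 signals at restriction, 10.09 and 10.38, also lay inside the range of their group. For SREBF2 the same array was the highest of its group, with 9.05 against 8.28 to 8.72 in the other 5 cows.

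Markers of fibroblasts and adipocyte progenitors moved in the same direction as INSIG1. Of 10 such markers 6 rose and 0 fell in each gain group (7 and 6 rose and 0 fell after centring, in high and then low gain cows), with a mean signal of 14.8 to 16.5 at ad libitum feeding and 14.1 to 15.4 at restriction in high gain cows. In low gain cows the mean was 14.1 to 16.2 at ad libitum feeding and 13.2 to 14.7 at restriction. Of the 12 adipocyte markers 3 rose and 3 fell in high gain and 3 rose and 2 fell in low gain cows. After centring 8 rose and 2 fell in high gain and 9 rose and 1 fell in low gain cows. Of all clusters 7.36% were called higher in high gain and 6.28% in low gain cows, and 18.8% and 18.6% after centring. Called lower were 53.1% and 54.3%, and 16.5% and 13.1% after centring. The part of these cell types in the rise of INSIG1 was not tested.

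SCAP, the escort that senses sterols and moves SREBPs out of the endoplasmic reticulum, fell in high gain cows on the deposited scale and did not pass the test in low gain cows. Its lowest, median and highest signals in high gain cows were 9.43, 9.70 and 10.01 at ad libitum feeding and 9.88, 10.10 and 10.40 at restriction. Low gain cows had 10.19, 10.59 and 10.78 at ad libitum feeding and 9.98, 10.27 and 10.59 at restriction. The diets overlapped in both gain groups, but each of the 6 high gain cows had less SCAP signal at ad libitum feeding than at restriction, and each of the 6 low gain cows had more.

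The mean change of SCAP was -0.45 in high gain cows (SE 0.13, 95% interval -0.75 to -0.15, limma adjusted p = 0.0177) and 0.25 in low gain cows (SE 0.12, 95% interval -0.010 to 0.51, limma adjusted p = 0.0865). Without cow H3 the high gain value was -0.40 with an adjusted p of 0.0554. The fall in high gain cows had nearly the size of the median change of all clusters, and after centring it was -0.032 (limma adjusted p = 0.871, 4 of 6 cows above 0). After centring SCAP rose by 0.70 in low gain cows (limma adjusted p = 0.00248, 6 of 6 cows). The call in high gain cows was thus made on the deposited scale only, whereas the low gain value was above 0 on both scales and called after centring only.

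**Figure D2:**
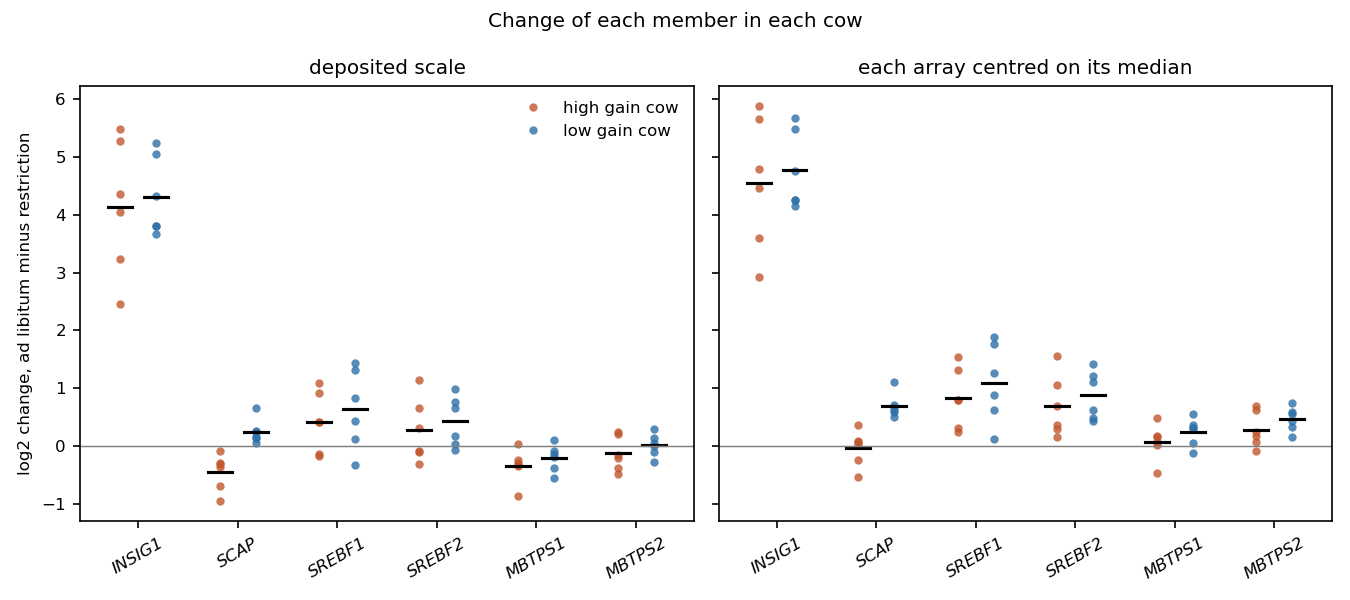
Log2 change of each member in each cow, ad libitum minus restriction (y axis), on the deposited scale (left) and with each array centred on its median (right); points are cows, black lines are means of 6 cows. Centring moved all points up by about the same amount, after which SREBF1 and SREBF2 were above 0 in 12 of 12 cows while SCAP ran from -0.53 (H1) to 0.37 (H2) in high gain cows.

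SREBF1 encodes SREBP-1, whose nuclear fragment acts mainly on fatty acid synthesis. Its lowest, median and highest signals in high gain cows were 10.34, 10.84 and 11.52 at ad libitum feeding and 9.42, 10.50 and 11.10 at restriction. The low gain cows had 11.24, 11.64 and 12.35 at ad libitum feeding and 10.56, 10.97 and 11.56 at restriction. The diets overlapped in both gain groups, and 4 of 6 high gain and 5 of 6 low gain cows had more signal at ad libitum feeding.

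On the deposited scale SREBF1 rose in low gain cows by 0.64 (SE 0.23, 95% interval 0.13 to 1.15, limma adjusted p = 0.0355), and its change in high gain cows was 0.42 (SE 0.18, 95% interval 0.0026 to 0.84, limma adjusted p = 0.0752). The call in low gain cows was lost without L1 (0.48), L2 (0.50), L3 (0.60) or L5 (0.68), and the value in high gain cows passed without H1 (0.54) or H3 (0.53). After centring SREBF1 rose in both, by 0.84 in high gain (limma adjusted p = 0.00857) and 1.09 in low gain cows (limma adjusted p = 0.00701), and in 12 of 12 cows.

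SREBF2 encodes SREBP-2, whose nuclear fragment acts mainly on cholesterol synthesis and uptake. Its lowest, median and highest signals in high gain cows were 8.53, 8.81 and 9.43 at ad libitum feeding and 8.28, 8.59 and 9.05 at restriction. In low gain cows they were 8.66, 8.98 and 9.53 at ad libitum feeding and 8.29, 8.58 and 9.02 at restriction. The diets overlapped in both gain groups, and 3 of 6 high gain and 5 of 6 low gain cows had more signal at ad libitum feeding.

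The change of SREBF2 was 0.27 in high gain cows (SE 0.19, 95% interval -0.17 to 0.71, limma adjusted p = 0.243; 0.099 without H1), and it rose by 0.43 in low gain cows (SE 0.16, 95% interval 0.064 to 0.79, limma adjusted p = 0.0442). The low gain call was lost without L1 (0.36), L2 (0.38), L3 (0.32) or L6 (0.48) and with all 24 arrays in 1 fit (adjusted p = 0.0579). After centring SREBF2 rose by 0.69 in high gain (limma adjusted p = 0.0212) and 0.88 in low gain cows (limma adjusted p = 0.0038), again in 12 of 12 cows. Both genes of the SREBPs thus rose relative to the array median, by less than 1.1 on the log2 scale, beside a rise of over 4 for INSIG1.

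MBTPS1 encodes the site-1 protease, which makes the first cut in the SREBPs. Its signal in high gain cows was 9.43 to 10.04 at ad libitum feeding (median 9.71) and 9.66 to 10.36 at restriction (median 10.11). In low gain cows it was 9.51 to 10.13 at ad libitum feeding (median 9.94) and 9.59 to 10.51 at restriction (median 10.10). The diets overlapped in both groups, and 5 of 6 cows in each had less signal at ad libitum feeding.

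MBTPS1 fell by 0.34 in high gain cows on the deposited scale (SE 0.13, 95% interval -0.62 to -0.051, limma adjusted p = 0.0444), and its change in low gain cows was -0.20 (SE 0.12, 95% interval -0.47 to 0.068, limma adjusted p = 0.168), or -0.13 without L3. The high gain call was lost when any cow but H2 was left out, with values of -0.36 (H1), -0.35 (H3), -0.34 (H4), -0.23 (H5) and -0.34 (H6). Both values lay above the median of all clusters, and both turned positive after centring, to 0.077 (limma adjusted p = 0.68) and 0.25 (limma adjusted p = 0.145).

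MBTPS2 encodes the site-2 protease, which cuts within the membrane and frees the nuclear fragment. Its signal in high gain cows was 10.10 to 10.85 at ad libitum feeding and 10.12 to 11.28 at restriction, and in low gain cows 10.51 to 10.83 at ad libitum feeding and 10.53 to 10.82 at restriction. The low gain cows were close together at either diet, with an SD of 0.12 at ad libitum feeding and 0.10 at restriction, against 0.28 and 0.41 in high gain cows. Its change was -0.13 in high gain cows (95% interval -0.42 to 0.16, limma adjusted p = 0.409) and 0.018 in low gain cows (95% interval -0.24 to 0.27, limma adjusted p = 0.902). The 2 intervals hold changes of up to about 0.4 in size, and the high gain value ran from -0.20 without H2 to -0.056 without H4. After centring MBTPS2 rose by 0.47 in low gain cows (limma adjusted p = 0.0144), and its value in high gain cows was 0.29 (limma adjusted p = 0.121).

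Members that work as a pair were also compared within each cow, where a shift common to all clusters of an array cancels. A shift that differs with brightness does not cancel. Clusters about as bright as INSIG1 had a median change of -0.24 in high gain and -0.16 in low gain cows. Those about as bright as SCAP had -0.43 and -0.36. The change of SCAP minus that of INSIG1 was -4.59 ± 1.28 in high gain and -4.06 ± 0.73 in low gain cows (SD, n = 6 each, below 0 in 12 of 12 cows). The exact two-sided sign-flip permutation test gave p = 0.03125 in each group, the smallest that 6 cows allow, and 0.09375 after Benjamini-Hochberg adjustment over 6 tests. With so few of the tests at that floor, no adjusted p under 0.05 was possible for this pair, whatever the size of its difference. The adjusted value therefore decides nothing for it. The change of SREBF1 minus that of SREBF2 was 0.15 ± 0.96 and 0.21 ± 0.47 in high and low gain cows (exact permutation test, adjusted p = 0.8125 and 0.3374). The change of MBTPS1 minus that of MBTPS2 was -0.21 ± 0.32 and -0.22 ± 0.21 (exact permutation test, adjusted p = 0.3282 and 0.125). For the 3 pair values no difference between the gain groups was detectable, with -0.06 (SREBF1 minus SREBF2), 0.0093 (MBTPS1 minus MBTPS2) and -0.52 (SCAP minus INSIG1), high minus low gain (exact permutation test, adjusted p = 0.9221 each).

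High gain cows had less SCAP signal than low gain cows at ad libitum feeding. The 6 high gain cows lay between 9.43 and 10.01 and the 6 low gain cows between 10.19 and 10.78, without overlap, as did 0.164% of all clusters in this direction and 0.380% in either. The difference, high minus low gain, was -0.83 (SE 0.13, 95% interval -1.11 to -0.54), with an unadjusted limma p of 3e-05 and an adjusted p of 0.25. No cluster was called in this comparison, although 1777 had an unadjusted p under 0.05. With all 24 arrays in 1 fit without a cow term, the adjusted limma p of SCAP was 0.0255. That fit treats the 2 arrays of a cow as independent. With the cow as a random block the adjusted limma p was 0.0226, and in these 2 fits SCAP was the only cluster called lower in high gain cows.

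At restriction the same cows did not differ detectably in SCAP, with 9.88 to 10.40 in high gain and 9.98 to 10.59 in low gain cows and a difference of -0.13 (SE 0.13, 95% interval -0.42 to 0.16, limma adjusted p = 0.794). The gain groups' difference of response, tested on all 24 arrays, was -0.70 (SE 0.17, 95% interval -1.06 to -0.33), with an unadjusted limma p of 0.00102 and an adjusted p of 0.29, where 0.00800% of all clusters were called lower and 0 higher. Centring left these values at -0.85 for ad libitum feeding, -0.12 for restriction and -0.73 for the difference of response. SCAP was thus among the clusters furthest from 0 at ad libitum feeding, with 99.6% of all clusters above its value, yet it did not pass the adjustment over all clusters on the 12 arrays alone.

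Markers of several cell types had medians away from 0 between the gain groups, with 0 markers called. The 12 adipocyte markers had a median difference, high minus low gain, of -0.17 at ad libitum feeding and -0.13 at restriction. All clusters had 0.012 and -0.017. The mean signal of these markers was 16.1 in high gain and 16.4 in low gain cows at ad libitum feeding, and 15.9 and 16.2 at restriction. At ad libitum feeding the median difference, high minus low gain, was 1.04 for 10 markers of fibroblasts and adipocyte progenitors, 0.46 for 10 of macrophages and monocytes and -0.33 for 9 of endothelial cells. At restriction it was 0.58, 0.73 and 0.38 in the same order. Markers of smooth muscle and pericytes had -0.021 at ad libitum feeding and 0.36 at restriction, and those of T and B lymphocytes 0.086 and -0.22. The mean signal of the endothelial markers in high gain cows was 11.5 to 11.9 at ad libitum feeding and 11.96 to 12.89 at restriction, and in low gain cows 11.7 to 12.3 at ad libitum feeding and 11.7 to 12.5 at restriction. In high gain cows 6 of the 9 fell and 0 rose with ad libitum feeding, where 53.1% of all clusters were lower and 7.36% higher. In low gain cows 2 rose and 2 fell, where 6.28% of all clusters were higher and 54.3% lower. After centring 0 rose and 2 fell in high gain cows (18.8% of all clusters higher, 16.5% lower). In low gain cows 3 rose and 1 fell after centring (18.6% higher, 13.1% lower). The median difference of response of the endothelial markers was -0.91, against 0.028 for all clusters. The part of these cell types in the SCAP and SREBF1 differences was not tested.

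**Figure D3:**
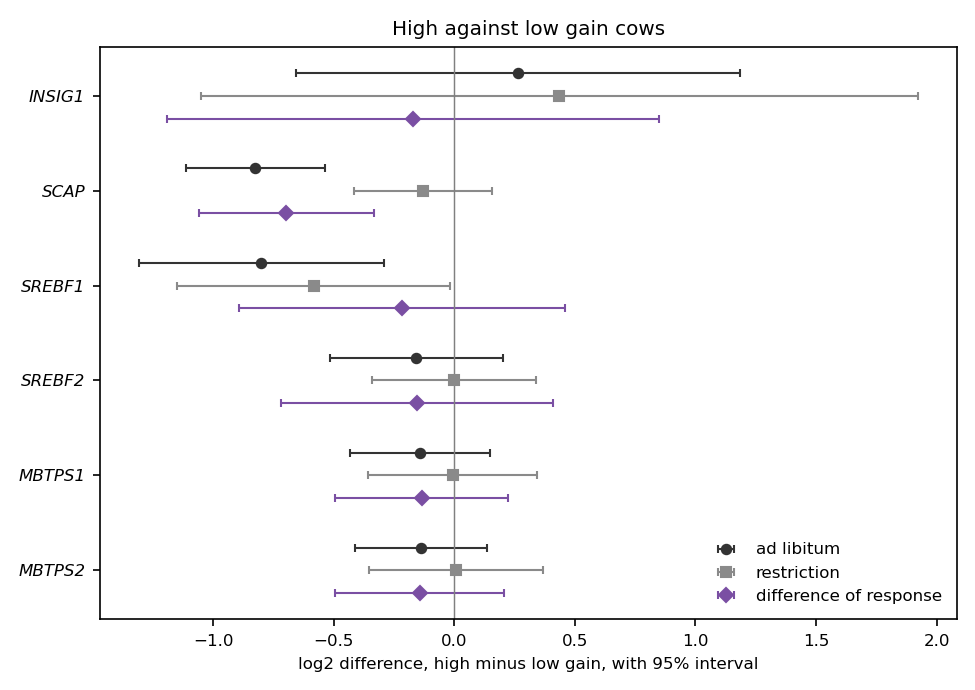
Log2 difference between gain groups, high minus low gain (x axis), for each member at ad libitum feeding, at restriction and for the difference of response; points are limma estimates and bars are 95% intervals. The interval of SCAP at ad libitum feeding ran from -1.11 to -0.54, that of SREBF1 from -1.31 to -0.29, and those of INSIG1 were the widest.

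On the deposited scale SREBF1 was also lower in high gain cows at both diets before adjustment. At ad libitum feeding it averaged 10.90 ± 0.51 in high gain and 11.70 ± 0.38 in low gain cows (SD over 6 cows). The difference was -0.80 (SE 0.24), with an unadjusted limma p of 0.00462 and an adjusted p of 0.531. At restriction it averaged 10.48 ± 0.60 in high gain and 11.06 ± 0.40 in low gain cows. The difference was -0.58 (SE 0.26), with an unadjusted limma p of 0.0445 and an adjusted p of 0.533, and without H5 it was -0.37. After centring the difference was -0.82 at ad libitum feeding, with an unadjusted limma p of 0.0039 and an adjusted p of 0.514. At restriction it was then -0.57, with an unadjusted limma p of 0.0526 and an adjusted p of 0.547. The gain groups overlapped at both diets on the deposited scale, and neither difference passed the adjustment on either scale.

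For the other members no difference between gain groups was detectable. INSIG1 differed by 0.26 at ad libitum feeding (95% interval -0.66 to 1.18) and by 0.44 at restriction (95% interval -1.05 to 1.92), and without cow H2 the values turned to -0.11 and -0.27. SREBF2 differed by -0.16 at ad libitum feeding (95% interval -0.52 to 0.20), MBTPS1 by -0.14 (95% interval -0.43 to 0.15) and MBTPS2 by -0.14 (95% interval -0.41 to 0.14). At restriction these 3 genes differed by less than 0.01 in size, with intervals that reached about 0.35 on either side. The adjusted limma p of these 8 values lay between 0.862 and 1. In the difference of response the 5 members other than SCAP had values between -0.22 and -0.13 and adjusted p between 0.823 and 0.931.

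The genes on which SREBPs act moved further than the SREBP genes themselves. Of 17 measured SREBP-2 targets of cholesterol synthesis, 15 rose and 0 fell in high gain cows and 14 rose and 0 fell in low gain cows, with median changes of 1.33 and 1.20 against -0.42 and -0.43 for all clusters. After centring all 17 measured targets rose in each group. The counts of this list and the next are read against 7.36% of all clusters higher and 53.1% lower in high gain cows. In low gain cows the shares were 6.28% and 54.3%. After centring 18.8% were higher and 16.5% lower in high gain cows, and 18.6% and 13.1% in low gain cows. IDI1, which isomerises isopentenyl diphosphate, averaged 16.2 at ad libitum feeding and 11.9 at restriction in high gain cows and rose by 4.30 (SE 0.31) there and by 3.31 (SE 0.22) in low gain cows. HMGCS1, which makes HMG-CoA, rose by 3.39 (SE 0.31) and 3.06 (SE 0.29), LSS, which closes the sterol ring, by 2.31 (SE 0.19) and 2.47 (SE 0.24), and MSMO1, a sterol demethylating oxidase, by 1.66 (SE 0.17) and 1.77 (SE 0.14), each in high and then low gain cows.

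Of 17 measured SREBP-1 targets of fatty acid synthesis, 13 rose and 1 fell in each gain group (16 and 15 rose and 0 fell after centring), with median changes of 3.74 in high gain and 2.86 in low gain cows. ACACA, the acetyl-CoA carboxylase that makes malonyl-CoA, rose by 4.24 (SE 0.20) in high gain and 3.10 (SE 0.31) in low gain cows. GPAM, which starts glycerolipid synthesis, rose by 3.84 (SE 0.18) and 2.18 (SE 0.31), and ELOVL5, a fatty acid elongase, by 2.96 (SE 0.14) and 2.89 (SE 0.24). PGD, of the pentose phosphate pathway, rose by 3.0 (SE 0.12) and 2.41 (SE 0.24). The gene that fell was PNPLA3, by 0.65 in high gain and 0.68 in low gain cows, which is itself switched on by SREBP-1 in human and mouse liver. SCD, the stearoyl-CoA desaturase, stood at 19.9, the end of the scale, at both diets, so that its change could not be measured, and its call after centring comes from the shift of the array.

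Of 6 measured SREBP-2 targets in sterol uptake and transfer, 2 rose in high gain and 4 in low gain cows, and 0 fell. Of all clusters 7.36% and 6.28% were called higher. After centring 4 and 5 rose and 0 fell, where 18.8% and 18.6% of all clusters were called higher. NPC2, which binds cholesterol in the lysosome, rose by 1.47 (SE 0.12) and 0.95 (SE 0.14), and TMEM97, an endoplasmic reticulum protein that binds NPC1, by 0.72 (SE 0.12) and 0.93 (SE 0.16), in high and then low gain cows. SCARB1, the HDL receptor, rose by 1.46 (SE 0.21) in low gain cows, and its change in high gain cows was 0.54 (SE 0.29, limma adjusted p = 0.134; called after centring, with 0.95).

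**Figure D4:**
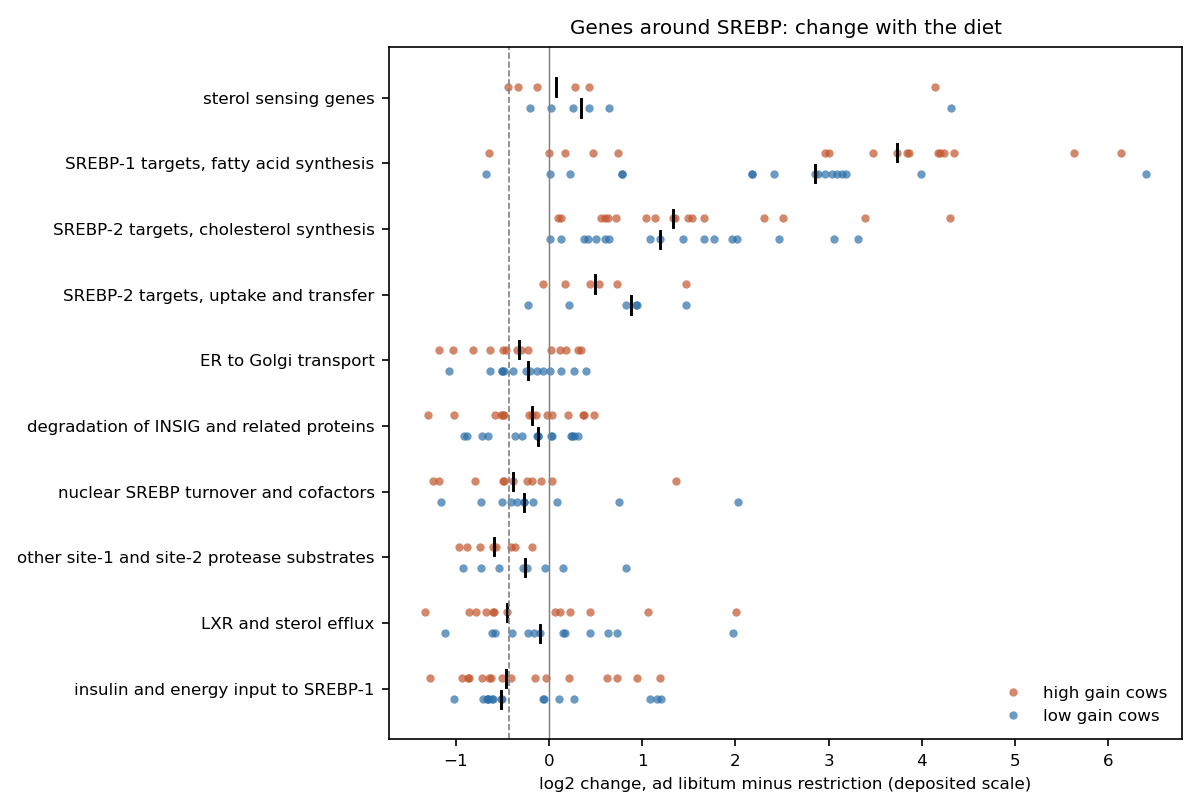
Log2 change, ad libitum minus restriction, on the deposited scale (x axis) for the sterol sensing genes and for the genes of 9 of the 10 lists around them without the members (the sterol-sensing domain proteins, which share genes with other lists, are not drawn); each point is a gene, high gain cows above low gain cows, black ticks are list medians, the solid line is 0 and the dashed line is the mean of the median changes of all clusters in the 2 gain groups. Target genes of SREBP-1 and SREBP-2 lay mostly to the right of 0, and the medians of the lists of transport, degradation, turnover, protease substrate, LXR and input genes ran from -0.59 to -0.10.

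For the genes that move or degrade the sterol sensing proteins, most calls of a lower signal on the deposited scale did not hold after centring. The counts of these and the following lists are read against 7.36% of all clusters higher and 53.1% lower in high gain cows and 6.28% higher and 54.3% lower in low gain cows on the deposited scale, and against 18.8% and 16.5% and 18.6% and 13.1% after centring. Of 14 genes of transport from the endoplasmic reticulum to the Golgi, 0 rose and 6 fell in high gain and 1 rose and 5 fell in low gain cows, with medians of -0.32 and -0.23. After centring 4 rose and 1 fell in high gain and 3 rose and 1 fell in low gain cows, with medians of 0.092 and 0.23. SEC24B, a cargo subunit of the COPII coat that SCAP rides in, fell by 1.18 (SE 0.10) in high gain and 1.07 (SE 0.16) in low gain cows, and also after centring, by 0.77 and 0.62. PAQR3, which anchors SCAP at the Golgi in mammalian cells, fell by 0.49 and 0.63, and after centring its values were -0.078 and -0.18 and were not called. SEC31A and SEC13, of the outer coat, fell by 0.82 and 0.63 in high gain cows and by 0.38 and 0.51 in low gain cows, and neither was called after centring.

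Of 15 genes that act in the degradation of INSIG and other sterol pathway proteins, 3 rose and 4 fell in high gain and 0 rose and 5 fell in low gain cows. After centring 5 rose and 2 fell in high gain and 6 rose and 1 fell in low gain cows. FAF2, which helps to extract proteins for degradation, fell by 1.30 (SE 0.13) and 0.88 (SE 0.13), and also after centring, by 0.89 and 0.43. RNF139, a ubiquitin ligase with a sterol-sensing domain, fell by 1.02 (SE 0.14) and 0.92 (SE 0.19), and after centring it was called in high gain cows only, with -0.61, against -0.47 in low gain cows. VCP, the ATPase that pulls ubiquitinated proteins from the membrane, rose by 0.48 (SE 0.13) in high gain cows, and its change in low gain cows was 0.27 (SE 0.11, limma adjusted p = 0.0658); after centring it rose in both, by 0.90 and 0.72.

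Of 11 genes that degrade or assist nuclear SREBPs, 1 rose and 6 fell in high gain and 2 rose and 4 fell in low gain cows. After centring 1 rose and 3 fell in high gain and 3 rose and 1 fell in low gain cows. GSK3B, the kinase that marks nuclear SREBPs for degradation, rose by 1.36 (SE 0.18) and 0.75 (SE 0.18), whereas CREBBP, a coactivator, fell by 1.25 (SE 0.13) and 1.16 (SE 0.16), SP1, a partner transcription factor, by 1.19 (SE 0.16) and 0.73 (SE 0.15), and MED15, a Mediator subunit that SREBP-1 binds, by 0.80 (SE 0.11) and 0.41 (SE 0.11). GSK3B and CREBBP were called in both groups after centring too, whereas SP1 and MED15 were called in high gain cows only, with -0.77 and -0.39, against -0.28 and 0.043 in low gain cows. Of 8 other substrates of the site-1 and site-2 proteases, 0 rose and 5 fell in high gain and 1 rose and 3 fell in low gain cows, and after centring 0 rose and 1 fell and 2 rose and 1 fell. ATF6B, an endoplasmic reticulum stress factor, fell by 0.88 (SE 0.10) in high gain cows, and its change in low gain cows was -0.24 (SE 0.12, limma adjusted p = 0.095), and after centring its values were -0.47, called, and 0.21, not called. Of the 6 measured proteins with a sterol-sensing domain, SCAP among them, 1 rose and 3 fell in high gain and 2 rose and 1 fell in low gain cows, and after centring 2 and 3 rose and 0 fell. DHCR7, the last enzyme of one route to cholesterol, was the one that rose in high gain cows, by 0.72 (SE 0.16), and it rose by 1.20 (SE 0.22) in low gain cows.

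Of 13 genes of the liver X receptors and sterol efflux, 2 rose and 6 fell in high gain and 4 rose and 3 fell in low gain cows. After centring 3 rose and 3 fell in high gain and 6 rose and 1 fell in low gain cows. APOE, a sterol carrier, rose by 2.00 (SE 0.30) and 1.97 (SE 0.41). NR1H2, which encodes LXR-beta, fell by 0.86 (SE 0.11) and 0.62 (SE 0.13), and the corepressor NCOR1 by 1.33 (SE 0.14) and 1.11 (SE 0.15). After centring APOE and NCOR1 kept their calls in both groups, and NR1H2 was called in high gain cows only, with -0.45, against -0.16 in low gain cows. Of 16 genes that carry insulin and energy signals to SREBP-1, 4 rose and 8 fell in high gain and 3 rose and 9 fell in low gain cows. AKT1, MTOR and RPTOR, of the kinase pathway below the insulin receptor, fell by 0.86, 0.72 and 0.63 in high gain and by 0.67, 0.52 and 0.51 in low gain cows, and TSC1, which restrains that pathway, by 1.27 and 1.03. After centring TSC1 was still called lower in both groups, with -0.86 and -0.57, and AKT1 in high gain cows only, with -0.45, against -0.22 in low gain cows. MTOR was not called, with -0.31 and -0.066, nor was RPTOR, with -0.22 and -0.056. After centring 5 of the 16 were called higher and 2 lower in high gain cows, and 7 higher and 1 lower in low gain cows. In the limma comparisons between gain groups 0 genes of these 10 lists were called at either diet, as were 0 of all clusters, of which 1777 at ad libitum feeding and 2292 at restriction had an unadjusted p under 0.05.

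Over the 24 arrays, after centring and after taking off the mean of each group, SREBF1 and SCAP had the highest Pearson correlation of the 15 pairs (0.565), and INSIG1 and MBTPS2 the lowest (-0.492). SREBF2 and INSIG1 had 0.405 and MBTPS1 and MBTPS2 0.389, and MBTPS1 had -0.384 with INSIG1 and -0.368 with SCAP. SREBF1 and SREBF2 had 0.169, and SCAP and INSIG1 had 0.132. The 24 arrays come from 12 cows, 2 each, and share the scaling of their array, so that these values are a description. For SREBF1 all 17 cholesterol synthesis targets had a correlation above 0 (median 0.432, range 0.096 to 0.675), for INSIG1 16 of 17 (median 0.361), for SREBF2 14 of 17 (median 0.355) and for SCAP 13 of 17 (median 0.12). Of the 17 fatty acid synthesis targets, 12 had a correlation above 0 with SREBF1 (median 0.178, range -0.3 to 0.651). With INSIG1 it was 13 of 17 (median 0.314) and with SREBF2 14 of 17 (median 0.209). With SCAP it was 9 of 17 (median 0.032). The medians over all genes were between -0.01 and 0.02 for these 4 members.

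The genes most like each member by the same measure, over 24 arrays and among 18443 genes, were INPP1 (0.808), KIF13A and CTSF for SREBF1, and NCS1 (0.734), MYO5A and MTHFD2 for SREBF2. For SCAP they were SIPA1 (0.709), DUS1L and TUBG1, and for INSIG1 SMYD2 (0.805), S100A10 and WDR12. For MBTPS1 they were TBC1D5 (0.832), HMGCLL1 and RTN3, and for MBTPS2 SUGCT (0.79), PRKAA1 and ZNF280BY. The lowest coefficient among these 18 genes was 0.651, that of TUBG1 with SCAP. Of the 18 genes, PRKAA1, a catalytic subunit of AMP-activated kinase, was also on the list of insulin and energy signals.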

How the data were processed

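The authors deposited log2 signals per transcript cluster, made by RMA after a correction for GC content and a signal space transformation in Expression Console, and used Transcriptome Analysis Console for their tests. Versions of both and a genome build are not given in the sources used here. The 24997 clusters at or above the lowest named identifier were tested, and 1776 of the 26773 deposited were left out. The titles give the cow, the gain group and the first or second biopsy, and the growth protocol gives their order as restriction and then ad libitum feeding. In this order, group averages matched the study's available rows within 0.01 in 1998 of 1998 rows in each gain group, and with the order turned in 0.

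Two-sided limma tests (version 3.58.1, R 4.3.3, lmFit with eBayes) were fitted to the 12 arrays of each comparison, with the cow as a block between diets, and to all 24 arrays for the difference of response. Benjamini-Hochberg adjustment was made over every tested cluster, with a threshold of 0.05. The arrays of a cow are paired as the same animal. Their deviations from group means had a median correlation of 0.185 in high gain and 0.102 in low gain cows, against -0.051 and -0.025 for different cows. No array was repeated, and their number limits the precision. On simulated data of 24997 clusters for the high gain diet comparison, 92.4% of 66 log2 changes of 2 and 4.48% of 67 changes of 0.5 were called, with 8 false calls. Far fewer clusters were changed there than the 1839 higher and 13261 lower called in these data. The adjustment was therefore stricter on the simulated data, and these shares do not give the power of the diet tests.

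Named genes are the members, up to 4 genes per list with the smallest p of the diet comparison in high gain cows, and the 3 genes most like each member. PNPLA3, SCD and the cell markers were named after their values were seen. The members, lists and tests were chosen with earlier results of these data known. The alternatives were no cow block, all arrays in 1 fit, other scalings, a filter on dim clusters, other priors and weights, all clusters, and each cow left out. The fit of all arrays had a cow block for the diet comparisons and no cow term between gain groups. Some genes of the lists are not reported here. No sequence is printed.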

Additional observations from a re-analysis of the deposited data

Results flagged for a closer look

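Of 24 combinations of member and group, 1 held a sample far from the others, about as many as chance gives, since about 1 in 20 such groups is picked out by chance. It was the INSIG1 signal of cow H2 at restriction, 14.26, where the nearest of the other 5 high gain cows had 10.97, so that this gap was 0.654 of the range of the group.

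SCAP moved in opposite directions in the gain groups on the deposited scale, down in 6 of 6 high gain and up in 6 of 6 low gain cows, and its change differed by -0.70 between them. The test of that difference had an unadjusted limma p of 0.00102 and an adjusted p of 0.29. After centring the high gain cows no longer moved one way (4 of 6 above 0).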

How the results depend on the processing

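INSIG1 kept its direction and its call between the diets under every alternative. In low gain cows SREBF1 and SREBF2 were called on the deposited scale and also under each of the 4 scalings below. Their values there were 0.88 to 1.09 (SREBF1) and 0.76 to 0.88 (SREBF2), although both calls were lost without some single cows. The remaining diet results depended on how arrays were scaled. In high gain cows SREBF1 passed the threshold with 0.84 after median centring, 0.78 after quantile normalization, 0.80 after centring on the 75th percentile and 0.78 after cyclic loess normalization, which was chosen after seeing the data. In the same order SREBF2 passed with 0.69, 0.68, 0.65 and 0.71, SCAP was no longer called with -0.032, -0.065, -0.073 and -0.041, MBTPS1 turned to 0.077, 0.042, 0.036 and 0.075, and MBTPS2 turned to 0.29, 0.23, 0.25 and 0.26. In low gain cows SCAP passed with 0.70, 0.56, 0.58 and 0.61, MBTPS1 turned to 0.25, 0.13, 0.13 and 0.17, and MBTPS2 passed with 0.47, 0.35 and 0.35 in all but quantile normalization. These 4 scalings set each array to a common level by construction. In the same order they called 4705, 4206, 4235 and 4395 clusters higher and 4130, 4406, 4757 and 4271 lower in high gain cows (1839 and 13261 on the deposited scale), and 4645, 3663, 3334 and 3902 higher and 3285, 3709, 5100 and 3671 lower in low gain cows (1569 and 13564).

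Leaving out the cow as a block changed no call of a member between the diets, and the median-centred values without the block were those with it: 0.84 (SREBF1), 0.69 (SREBF2), -0.032 (SCAP), 0.077 (MBTPS1) and 0.29 (MBTPS2) in high gain cows, and 0.70 (SCAP), 0.25 (MBTPS1) and 0.47 (MBTPS2) in low gain cows, with 4481 higher and 4028 lower clusters and 4643 higher and 3510 lower clusters. For the difference of response, 0 clusters were called lower without the block, also after centring, against 2 with it, 5 after centring with it, 0 with a trended and robust prior and 1 with array weights. The cow as a random block, as well as all 24 arrays in 1 fit without a cow term, called SCAP at ad libitum feeding (-0.83). Each of these fits called 1 cluster higher and 1 lower there, and 1 lower at restriction. At restriction 1 cluster was also called lower after centring on the 75th percentile, without clusters of a mean signal below 6.88 and with array weights, and 2 with the trended prior.

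MBTPS1 in high gain cows (-0.34) was not called without those dim clusters or with the trended prior, and SREBF2 in low gain cows (0.43) was not called with all arrays in 1 fit. Values near 0 at restriction between gain groups changed sign: SREBF2 to 0.014 after centring and 0.0044 with array weights, MBTPS1 to 0.0070 and 0.022, and MBTPS2 to -0.016 after quantile normalization, -0.025 by the 75th percentile and -0.030 by cyclic loess. Between gain groups SREBF1 minus SREBF2 turned to 0.057 after quantile normalization, and MBTPS1 minus MBTPS2 to -0.0012 by cyclic loess. The cause of these changes was not tested.

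With each cow left out in turn, the high gain diet values ran from 0.29 to 0.54 (SREBF1), 0.099 to 0.39 (SREBF2), -0.20 to -0.056 (MBTPS2), -0.52 to -0.35 (SCAP) and -0.41 to -0.23 (MBTPS1), and the low gain values from 0.48 to 0.83 (SREBF1), 0.32 to 0.53 (SREBF2) and -0.039 to 0.078 (MBTPS2). At restriction the differences between gain groups ran from -0.71 to -0.37 (SREBF1), -0.09 to 0.083 (SREBF2), -0.27 to 0.74 (INSIG1), -0.11 to 0.078 (MBTPS1) and -0.12 to 0.11 (MBTPS2), at ad libitum feeding from -0.11 to 0.43 (INSIG1), and for the difference of response from -0.44 to 0.16 (INSIG1). Clusters called lower numbered 0 to 2 at restriction, 0 to 1 at ad libitum feeding and 0 to 4 for the difference of response. SREBF1 minus SREBF2 ran from -0.10 to 0.44 in high gain cows and from -0.31 to 0.23 between gain groups, and MBTPS1 minus MBTPS2 from -0.064 to 0.11 between gain groups.

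Averaging over several clusters was not run for members, which have 1 cluster each, and INSIG1 minus INSIG2 was not run. The simulation, in which few clusters were changed, does not give the power of the diet tests at 6 cows per group. The small uncalled values set no limit beyond their intervals.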
